A study of Mus musculus with 378 samples.

Results

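Prkg2 (ENSMUSG00000029334) encodes the type II cGMP-dependent protein kinase. It is 1 of the 22180 genes in the deposited islet tables and was chosen by the spread of its level between mice, which is therefore given as a description, with no test. RNA had been sequenced from the pancreatic islets of Diversity Outbred mice, with 1 library per mouse. This is an outbred stock in which each animal carries its own mosaic of founder genomes, so no genotype was repeated. The p-values below measure the spread between mice, which were treated as independent, with no term for relatedness in the models. Every mouse had been given a high-fat, high-sugar diet (45% fat per the labels). There was no group on another diet, and the age and genotypes of the mice were not used here. The letter F or M in the titles was read as sex. The titles also number the mice, and bands of 100 numbers starting at 21 were used as a covariate because the labels name no batch. Females numbered 46 in band 1, 46 in band 2, 49 in band 3 and 47 in band 4, and males numbered 45, 48, 50 and 47 in the same order, 190 in all.

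The libraries held between 15.1 M and 68.8 M counts (median 34.8 M), fewer in band 4 (median 23.99 M). The tissue label was checked against hormone genes: Ins2 averaged 95562 ± 27426 CPM, the glucagon gene Gcg 18024 ± 10501 CPM and the somatostatin gene Sst 1388 ± 1023 CPM (SD over all libraries). CPM are TMM-scaled counts relative to the library total. The acinar elastase gene Cela1 was also present, at 483.3 ± 681.5 CPM, so the preparations held some exocrine RNA. No female library had a Y-linked count (0 libraries), 2 females had less Xist than the highest male, and 0 libraries went against their label on both measures.

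Cyclic GMP is made by membrane receptors for natriuretic and guanylin peptides and by soluble cyclases that sense nitric oxide. It is broken down by phosphodiesterases and acts through kinases, ion channels and the phosphodiesterases themselves. The product of Prkg2 is held at membranes and is best known from ion secretion in the gut, renin release in the kidney and the growth of long bones, whereas that of its relative Prkg1 acts in smooth muscle, platelets and neurons. Diversity Outbred mice inherit founder chromosomes in long stretches, so that neighbouring genes are often inherited together.

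Prkg2 lies on the minus strand of chromosome 5 at 98929773 to 99037351 (GRCm38). GENCODE mouse release 21 lists 5 transcripts for it. The longest pair span 107.6 kb and 105.3 kb with 19 exons each. A pair of short coding transcripts, with 5 and 4 exons, cover only about 12.6 kb (98931268 to 98943832 and 98931268 to 98943834) at the end of the gene, and the fifth is a retained intron. A processed pseudogene, Gm3470 (99021803 to 99022222), sits inside the locus on the same strand and has no row in the count table. The counts are per gene, so the values below do not say which transcript was present. All counts of Prkg2 were whole numbers (100%), as when no read is divided among similar genes.

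The level of Prkg2 differed between mice by orders of magnitude. Over all libraries its median was 0.825 CPM, its 10th percentile 0.149 CPM and its 90th percentile 36.8 CPM. The highest library, a band 1 male, had 79.2 CPM, which was 3128-fold above the lowest library with any count. That lowest library, a band 2 male, held 1 count (0.0253 CPM), where 3 counts would be 0.0799 CPM, so the fold rests on 1 read. A single library, a band 4 male, had 0 counts, and 3 counts in that library, the floor taken for an observed 0, correspond to 0.132 CPM. In counts the median library had 28, the 10th percentile 5 and the maximum 4728, so the low libraries rest on few reads and their order among themselves is poorly resolved.

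The libraries fell on either side of a trough. There were 198 libraries under 1 CPM, 96 between 1 and 20 CPM and 84 over 20 CPM. The density of log2 CPM had a trough at 12.4 CPM, with 92 libraries above it (12.6 to 79.2 CPM, median 33.9) and the others below (0 to 11.4 CPM, median 0.548). The share above the trough was 24.3% (exact 95% binomial interval 20.1% to 29.0%, counting error only). The trough is not an empty gap: with sex and band removed, the largest step between neighbours within the central 90% of libraries was 0.33 log2 units. Correlations are therefore given over all libraries, with the values on each side of the trough beside the main ones. With sex and band removed, the standard deviation of log2 CPM was 2.79, place 75 among 12960 genes of mean CPM at least 2, where the median gene had 0.262. Prkg2 met that limit through its high libraries, with a mean of 9.58 CPM and a median of 0.825 CPM. Gm10709 (2.80) and Gm20536 (2.79) stood just above and just below it. In the deposited variance-stabilised values, with sex and band likewise removed, Prkg2 had a standard deviation of 1.67 and place 85, against 0.220 for the median gene.

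**Figure D1:**
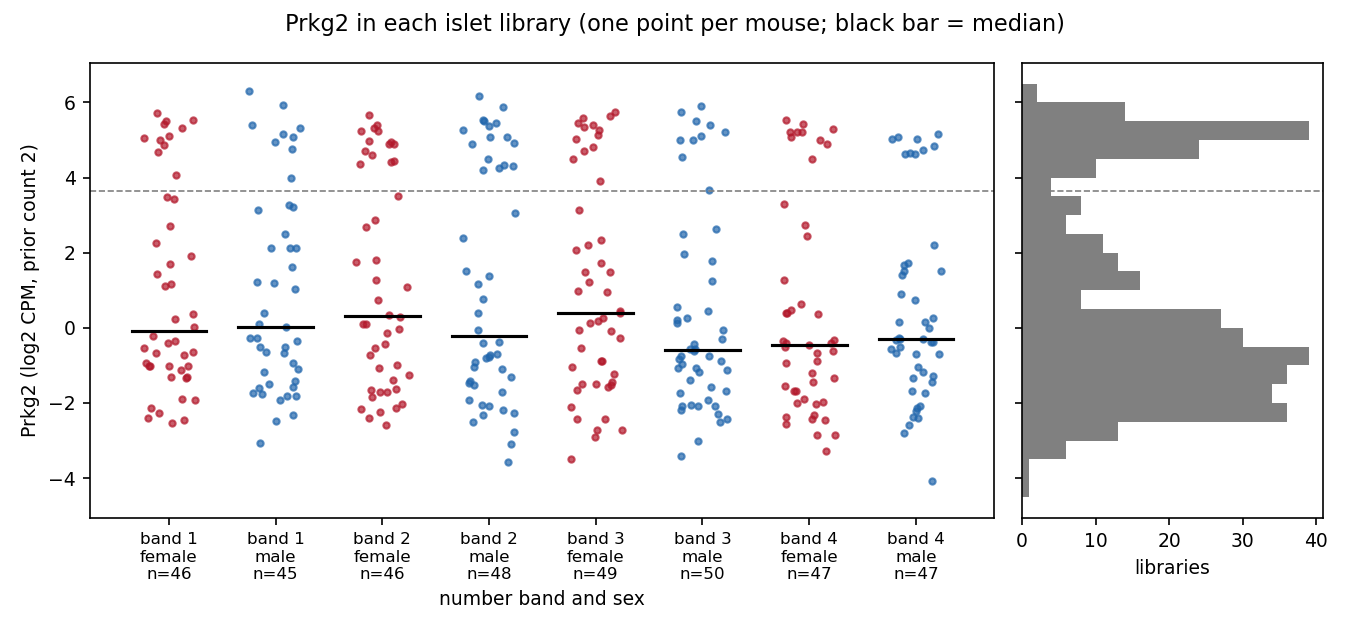
Prkg2 in each library as log2 CPM (prior count 2) by number band and sex, 1 point per mouse with a black bar at the median, beside a histogram of all libraries. Each of the 8 combinations of sex and band holds libraries on both sides of the trough at 12.4 CPM (dashed line).

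Prkg2 covered much the same range in both sexes. In females it had a median of 1.01 CPM and a range of 0.0294 to 53.2 CPM. In males the median was 0.746 CPM and the range 0 to 79.2 CPM. The ranges overlapped almost entirely, and 48 females (25.5%) and 44 males (23.2%) lay above the trough. Females minus males differed by 0.15 ± 0.27 log2 units (SE, 95% interval -0.38 to 0.68), which did not pass (edgeR's quasi-likelihood test, Benjamini-Hochberg adjusted p = 0.675). With 8 cell type scores as covariates it was 0.91 log2 units, still short of the threshold (adjusted p = 0.0796). By the same test 50.6% of the 16927 tested genes differed by sex. In bands 1 to 4 alone the difference was 0.05, -0.23, 0.39 and 0.39 log2 units, and its interaction with band did not pass (adjusted p = 0.924, where 1.09% of tested genes did).

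Differences in Prkg2 between the bands were small beside the spread within them. The medians of bands 1 to 4 were 0.956, 1.09, 0.904 and 0.716 CPM, and 20, 30, 23 and 19 of their libraries lay above the trough. Relative to band 1 the fitted differences of bands 2, 3 and 4 were 0.26, -0.06 and -0.40 log2 units, and the band term did not pass (edgeR's quasi-likelihood test, adjusted p = 0.411), whereas it was called for 87.9% of all tested genes.

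Other genes were then tested for a slope on Prkg2, the change of a gene in log2 units for each log2 unit of Prkg2, with sex and band in the model. Of 16926 genes 550 followed Prkg2 (3.25%), with positive slopes in 1.69% and negative slopes in 1.56% of all genes tested. Without the 2 libraries farthest from the median of Prkg2, the males with 79.2 and 72.1 CPM, the share called was 1.77%. It was 1.9% in males alone and 0.106% in females alone. By permutation of rho 1138 genes passed (6.72%) and by permutation of r 484, and 490 genes were called by both slope and rho. The spread of a bulk islet level does not tell fewer cells of a type from less RNA per cell, for Prkg2 or for any gene named here.

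The share of genes that followed Prkg2 was highest near it on chromosome 5. Within 10 Mb, measured between the lower coordinates of the genes, 37 genes were called, 25.5% of those tested, against 2.95% of the 15753 tested genes on other chromosomes. Over all tested genes within 10 Mb, called or not, the median absolute Spearman rho with Prkg2 was 0.0862, against 0.0540 over all tested genes. Sex and band were removed for these values. Called were 9 of 30 tested genes within 2 Mb, 6 of 18 from 2 to 5 Mb and 22 of 97 from 5 to 10 Mb. The share was 12.7% from 10 to 20 Mb, 5.64% from 20 to 40 Mb and 1.46% beyond 40 Mb. Of the 37 neighbours 23 had positive and 14 negative slopes, so genes around Prkg2 did not move one way. Of the 10 genes with the smallest p in the genome 9 lay within 10 Mb, and 15 of the first 20 lay on chromosome 5. With 8 cell type scores as covariates 38 neighbours were called and 2.11% of all genes, and with 10 principal components of the other chromosomes 27 neighbours and 0.337% of all genes.

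**Figure D2:**
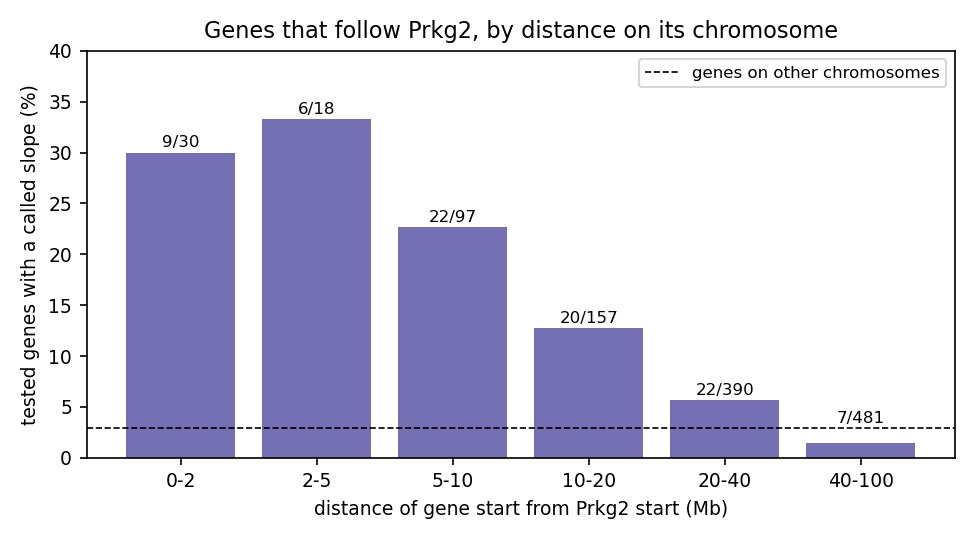
Percentage of tested genes on chromosome 5 whose slope on Prkg2 was called, by distance of the gene's start from that of Prkg2 in Mb, with called and tested genes above each bar. It is 9 of 30 within 2 Mb and 1.46% beyond 40 Mb, and the dashed line marks the 2.95% on other chromosomes.

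The most negative rho of all 16926 tested genes was that of Helq, which encodes a DNA helicase (chromosome 5, 100762145 to 100798598, minus strand, 1.83 Mb from Prkg2). Helq ran from 14.8 to 36.1 CPM over all libraries, with a median of 25.1 CPM. Its range in females (16.2 to 34.4 CPM) overlapped that in males (14.8 to 36.1 CPM). It fell with Prkg2, with a slope of -0.0364 ± 0.0034 (SE, edgeR's quasi-likelihood test, adjusted p = 2.8e-19). Between the 10th and the 90th percentile of Prkg2 this slope amounts to a 1.21-fold lower level of Helq. Pearson's r was -0.488 and Spearman's rho -0.485 (two-sided permutation p = 1e-05 for each, the smallest that 100000 resamples can give, adjusted p = 0.00403 and 0.00199). Without the 2 libraries farthest from the median r was -0.474. In bands 1 to 4 rho was -0.430, -0.572, -0.601 and -0.341, and it was negative in 8 of 8 combinations of sex and band.

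The most positive rho was that of Cds1, which encodes a CDP-diacylglycerol synthase of phospholipid synthesis (101765130 to 101823858, plus strand, 2.84 Mb away). Cds1 ran from 16.2 to 160.7 CPM with a median of 38.6 CPM, and ran higher in males, up to 160.7 CPM, than in females, up to 81.4 CPM. Its slope was 0.0823 ± 0.0077 (adjusted p = 2.15e-19 by the same test), a 1.53-fold rise between the 10th and 90th percentiles of Prkg2. Pearson's r was 0.456 and rho 0.366 (permutation p = 1e-05 for each, adjusted p = 0.00403 and 0.00199), and r was 0.443 without the 2 farthest libraries. In bands 1 to 4 the rho of Cds1 was 0.303, 0.389, 0.323 and 0.415.

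Ephx4, a gene of the epoxide hydrolase family 8.47 Mb away (107402736 to 107430035, plus strand), fell with Prkg2. It ran from 0.275 to 12.7 CPM with a median of 5.64 CPM and was spread widely in both sexes. Its slope was -0.0838 ± 0.0109 (edgeR's quasi-likelihood test, adjusted p = 8.46e-10), a 1.54-fold lower level between the same percentiles. Pearson's r was -0.386 and rho -0.397 (permutation p = 1e-05 for each, adjusted p = 0.00403 and 0.00199), r was -0.383 without the 2 farthest libraries, and rho was -0.401, -0.511, -0.376 and -0.269 in bands 1 to 4.

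**Figure D3:**
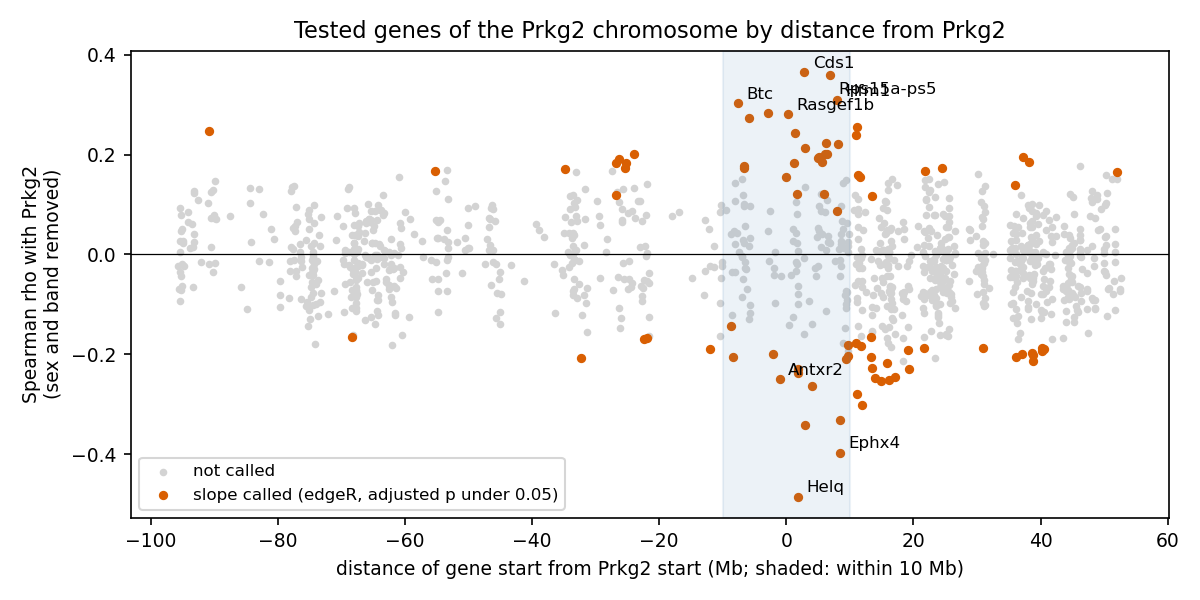
Spearman rho with Prkg2 (sex and band removed) of every tested gene on chromosome 5 by the distance of its start from that of Prkg2 in Mb, with called genes in orange and the 10 Mb window shaded. The largest values of either sign, Helq at -0.485 and Cds1 at 0.366, lie in the shaded window, and called genes thin out with distance.

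The slopes of these 3 partners were also fitted on each side of the trough, a division added after the data were seen, and the difference between the sides was not tested. Among the libraries below it Helq kept a slope of -0.0430 (edgeR's quasi-likelihood test, adjusted p = 6.54e-07) and Ephx4 one of -0.106 (adjusted p = 2.82e-04). Cds1 had a slope of 0.00988 there (adjusted p = 0.750), beside 0.0823 over all libraries. Among the 92 libraries above the trough the slopes were -0.0919 for Helq, 0.0632 for Cds1 and 0.0799 for Ephx4, and none of the 3 passed (adjusted p = 0.422, 0.856 and 0.903). Of the tested neighbours 40 were called below the trough, 17 of them among the 37 called over all libraries and in the same direction, and 0 above it, where the libraries span 12.6 to 79.2 CPM. By the same test 6.62% and 0.183% of all tested genes were called on the 2 sides.

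**Figure D4:**
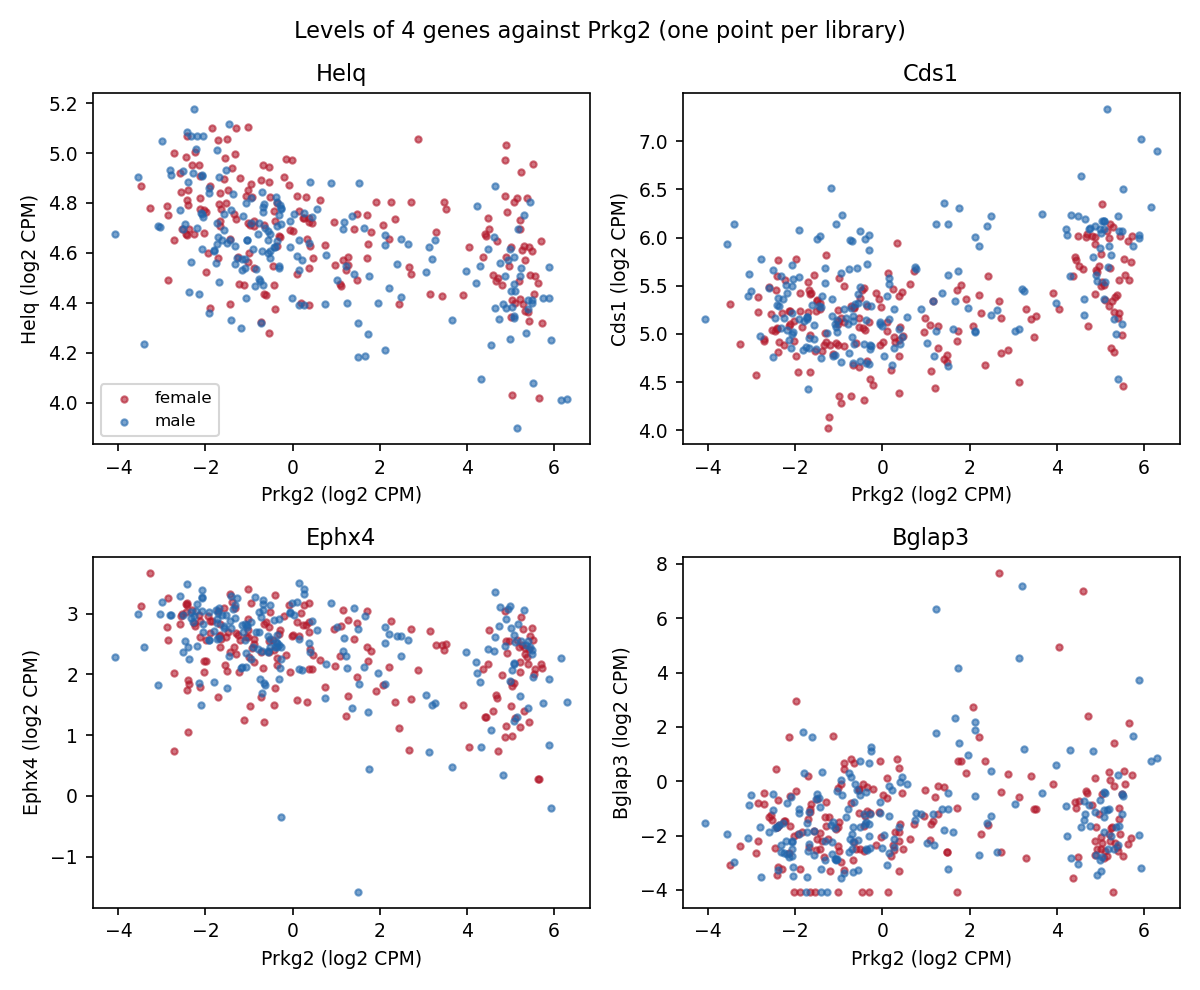
Log2 CPM of Helq, Cds1, Ephx4 and Bglap3 (vertical axes) against log2 CPM of Prkg2 (horizontal axes), 1 point per library, females in red and males in blue. Helq and Ephx4 fall and Cds1 rises towards high Prkg2, with the sexes intermixed, while Bglap3 is low in most libraries.

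The genes closest to Prkg2 were not all among its partners. Bmp3, a gene of the bone morphogenetic protein family whose start lies 0.0754 Mb below that of Prkg2, ran from 0.998 to 23.4 CPM with a median of 4.26 CPM. Its slope was 0.0467 ± 0.0138 (edgeR's quasi-likelihood test, adjusted p = 0.0341), its rho 0.154 and its r 0.155 (permutation p = 0.00288 and 0.00246, adjusted p = 0.0461 and 0.0664). In bands 1 to 4 the rho of Bmp3 was 0.132, -0.056, 0.188 and 0.388, so the relation did not hold in band 2. On the other side Rasgef1b, a gene for an exchange factor of Ras-like proteins 0.288 Mb away, ran from 8.93 to 59.3 CPM with a median of 19.8 CPM. It rose with Prkg2 (slope 0.0493 ± 0.0075, adjusted p = 3.38e-07, rho 0.281, r 0.308), in all 8 combinations of sex and band. Antxr2, an anthrax toxin receptor gene 1.05 Mb below, fell (slope -0.0353 ± 0.0073, adjusted p = 0.00121, rho -0.249). The other genes with the nearest starts did not pass: Gm8041 and Gm2861 below Prkg2, and A930011G23Rik, Gm43248 and Hnrnpd above it, had rho between -0.140 and 0.0262 and adjusted p between 0.186 and 0.866.

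The rule for the 8 neighbours of largest rho also gave Rps15a-ps5, Gm20548, Gm42902, Hfm1 and Btc. Btc encodes betacellulin, a ligand of the epidermal growth factor receptor family, and lies 7.57 Mb below Prkg2. It ran from 0.307 to 6.29 CPM with a median of 1.82 CPM and rose with Prkg2 (slope 0.0588 ± 0.0103, adjusted p = 2.95e-05, rho 0.303). Hfm1, a gene for a helicase of meiosis 7.91 Mb away, was low throughout (0 to 2.59 CPM, median 0.434) and rose as well (slope 0.109 ± 0.0177, adjusted p = 3.33e-06, rho 0.309). Gm42902 fell with a slope of -0.0744 ± 0.0124 (rho -0.331). It overlaps the start of Ephx4 on the other strand (107392731 to 107403480), and as the labels do not state that counting used strand, reads of the pair cannot be told apart there. Rps15a-ps5, a ribosomal protein pseudogene (rho 0.359), and Gm20548 (rho -0.341) had no whole-number count in any library (0%), so their reads were divided with similar sequences and their values are uncertain.

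The neighbours were also related to each other. Among the 28 pairs of these 8 genes the strongest rho was 0.727 between Ephx4 and Gm42902, followed by 0.660 between Rps15a-ps5 and Hfm1 and -0.549 between Ephx4 and Rps15a-ps5. Helq had rho 0.366 with Ephx4, -0.351 with Btc and -0.240 with Cds1, and the weakest pair was Cds1 with Hfm1 (0.0825). These are descriptions over the same libraries, with sex and band removed, and share the scaling of each library.

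Other called neighbours, named after their values were seen, had smaller slopes. Sec31a, a coat gene of vesicles leaving the endoplasmic reticulum, rose (0.0132 ± 0.0027, adjusted p = 0.00122, rho 0.244). Sept11, a septin gene, rose by 0.0171 ± 0.0033 (adjusted p = 2.5e-04, rho 0.275). Tgfbr3, which encodes the TGF-beta co-receptor betaglycan, rose (0.0358 ± 0.0073, rho 0.222), and Mapk10, the gene of the stress kinase JNK3, fell (-0.0249 ± 0.0063, rho -0.264). The guanylate-binding protein genes Gbp4, Gbp6 and Gbp9, which respond to interferon, rose with slopes of 0.0754, 0.0622 and 0.0642, and had no whole-number counts (0%), so the division of reads among them is uncertain.

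Farther out on chromosome 5 the 5 genes of largest rho were Ttc28 (-0.301), Plcxd1 (-0.280), Zfp932 (0.255), Coro1c (-0.254) and Acads (-0.251), at 11.1 to 16.2 Mb. Ttc28, a tetratricopeptide repeat gene, fell by 0.0543 ± 0.00998 for each log2 unit of Prkg2 (edgeR's quasi-likelihood test, adjusted p = 1.13e-04). Coro1c encodes a coronin that binds actin, and Acads a mitochondrial acyl-CoA dehydrogenase. Plcxd1 and Zfp932 had no whole-number counts (0%). Beyond 10 Mb 49 of 1028 tested genes of the chromosome were called (4.77%), and over the whole chromosome 86 of 1173 (7.33%).

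On other chromosomes the correlates were weaker. By the rule of largest rho among genes of mean CPM at least 2, with the same sign in 8 of 8 combinations of sex and band, the positive ones began with Elavl4, which encodes a neuronal RNA-binding protein. Elavl4 ran from 13.2 to 96.8 CPM with a female median of 38.2 CPM and a male median of 44.5 CPM, and the sexes overlapped. It rose with Prkg2 (slope 0.0317 ± 0.0076, adjusted p = 0.0070, rho 0.256). Elavl4 passed in males alone (0.0502, edgeR's quasi-likelihood test, adjusted p = 0.00947) but not in females alone (0.0131, adjusted p = 0.769). The difference between the sexes was not called. With 10 principal components as covariates Elavl4 did not pass (0.0109, adjusted p = 0.777). The doublecortin-domain gene Dcdc2a (rho 0.250), Azi2 (0.247), an adaptor gene of the kinase TBK1, and Rcbtb1 (0.242) followed. The mitochondrial ubiquitin ligase gene March5 (0.237), Ldlrad3 (0.236), the Toll-like receptor gene Tlr2 (0.231), Tmem255a (0.227), Prkar2b (0.227), the trace amine receptor gene Taar1 (0.226), the glycosyltransferase gene Large (0.226) and Pamr1 (0.226) completed the 12. Tmem255a had whole-number counts in 2.12% of libraries only.

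The negative distant correlates began with Rnf180, a ubiquitin ligase gene. It ran from 0.686 to 6.53 CPM with a median of 2.51 CPM and fell with Prkg2 (slope -0.0429 ± 0.0083, adjusted p = 2.59e-04, rho -0.293). In bands 1 to 4 its rho was -0.148, -0.352, -0.465 and -0.178, with the sign fixed by the rule that named it. Ptgfrn, which encodes a partner of the prostaglandin F receptor, had rho -0.273 and a slope of -0.0493 ± 0.0093 (adjusted p = 1.87e-04). Pias3, an inhibitor gene of STAT signalling (rho -0.273), the deubiquitinase gene Usp49 (-0.264), Rgs3, a regulator gene of G-protein signalling (-0.263), Zfp7 (-0.261), Zfp398 (-0.257), Mkrn1 (-0.252), Rcc1, the exchange factor gene of Ran (-0.250), Mapre2, a microtubule end-binding gene (-0.248), and Rpia, an enzyme gene of the pentose phosphate pathway (-0.242), were the others of the 12 together with Dlk1. Dlk1, an imprinted gene for a Notch-like membrane protein, ran from 0.436 to 115.5 CPM with a female median of 18.9 CPM and a male median of 9.58 CPM. It fell with Prkg2 with a slope of -0.0879 ± 0.0202 (edgeR's quasi-likelihood test, adjusted p = 0.00503, rho -0.247). By the same test Dlk1 did not pass in females alone (-0.0494, adjusted p = 0.528) but passed in males alone (-0.128, adjusted p = 0.0274). Tested directly, the difference between the slopes of the sexes did not pass (0.0764 ± 0.0398, edgeR's quasi-likelihood test, adjusted p = 0.534). With 10 principal components as covariates Rnf180 no longer passed (-0.0279, adjusted p = 0.122). Nor did Rnf180 pass in females alone (-0.0458, adjusted p = 0.0788) or in males alone (-0.0383, adjusted p = 0.0532).

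The genes that make, break down or respond to cGMP were taken by lists, whose counts stand beside the 3.25% of all tested genes that were called. Of the ligand genes only guanylin, Guca2a, passed the filter on low counts, with a slope of -0.0411 ± 0.0163 (edgeR's quasi-likelihood test, adjusted p = 0.140, rho -0.146). Of the 8 tested receptors and cyclases 0 were called, with a median rho of 0.00286 beside -0.00272 over all tested genes. Gucy2c, which encodes the guanylin receptor, was at 134.2 ± 56.1 CPM (SD, all libraries) with rho 0.0550, and the natriuretic peptide receptor gene Npr1, at 23.1 ± 7.41 CPM, had rho -0.00710. The soluble cyclase genes Gucy1a3 (0.0574) and Gucy1b3 (0.0128) were as weakly related. Of 13 phosphodiesterase genes 0 were called, their median rho was -0.00378, and the value farthest from 0 was -0.135 for Pde10a.

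Among the cyclic nucleotide kinases 1 of 7 tested genes was called, where 3.25% of all tested genes were. Prkar2b, a regulatory subunit gene of the cAMP-dependent kinase, ran from 28.5 to 125.7 CPM with a median of 54.6 CPM and overlapped between the sexes (female median 54.1 CPM, male median 54.8 CPM). It rose with Prkg2 (slope 0.0250 ± 0.0059, adjusted p = 0.00668, rho 0.227, r 0.217, permutation p = 2e-05 and 3e-05). In bands 1 to 4 the rho of Prkar2b was 0.211, 0.194, 0.225 and 0.281, and r was 0.199 without the 2 farthest libraries. Prkar2b passed in males alone (0.0301, edgeR's quasi-likelihood test, adjusted p = 0.0435) but not in females alone (0.0211, adjusted p = 0.391). By the same test the difference between the sexes did not pass (-0.00826 ± 0.0119, adjusted p = 0.888). With 10 principal components as covariates Prkar2b did not pass (0.0209, adjusted p = 0.108). Prkg1, the relative of Prkg2, was low (1.90 ± 0.622 CPM, SD) and had a slope of -0.000144 ± 0.00848 (adjusted p = 0.996).

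Of the channel and export genes 1 of 4 was called (3.25% of all tested genes), Cngb3, which encodes a subunit of the cGMP-gated channel of cones. Cngb3 was low, from 0.0398 to 17.3 CPM, with a female median of 0.414 CPM and a male median of 0.883 CPM. It rose with Prkg2 (slope 0.144 ± 0.0285, edgeR's quasi-likelihood test, adjusted p = 4.54e-04, rho 0.214), a 2.11-fold difference between the 10th and 90th percentiles of Prkg2, with positive rho in 8 of 8 combinations. In either sex alone it missed the threshold (adjusted p = 0.0959 in females and 0.0890 in males). Of 4 genes listed for nitric oxide synthesis 1 was called, beside the same 3.25% of all. The list includes Nos1ap, which encodes an adaptor protein and not a synthase. The called gene was the inducible synthase gene Nos2 (slope 0.107 ± 0.0278, adjusted p = 0.0140, rho 0.154), at 0.0391 to 26.3 CPM. Its rho in band 4 was -0.0421, and it was not called with limma-voom (0.0641, adjusted p = 0.141) or with 8 cell type scores as covariates (0.0786, adjusted p = 0.0807). Of the 9 tested kinase substrates 0 were called by slope, beside 3.25% of all tested genes, and their median rho was -0.0882. Gsk3b (rho -0.195) and Vasp (-0.156) were lowest, with adjusted p of 0.0847 and 0.0632 for their slopes.

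**Figure D5:**
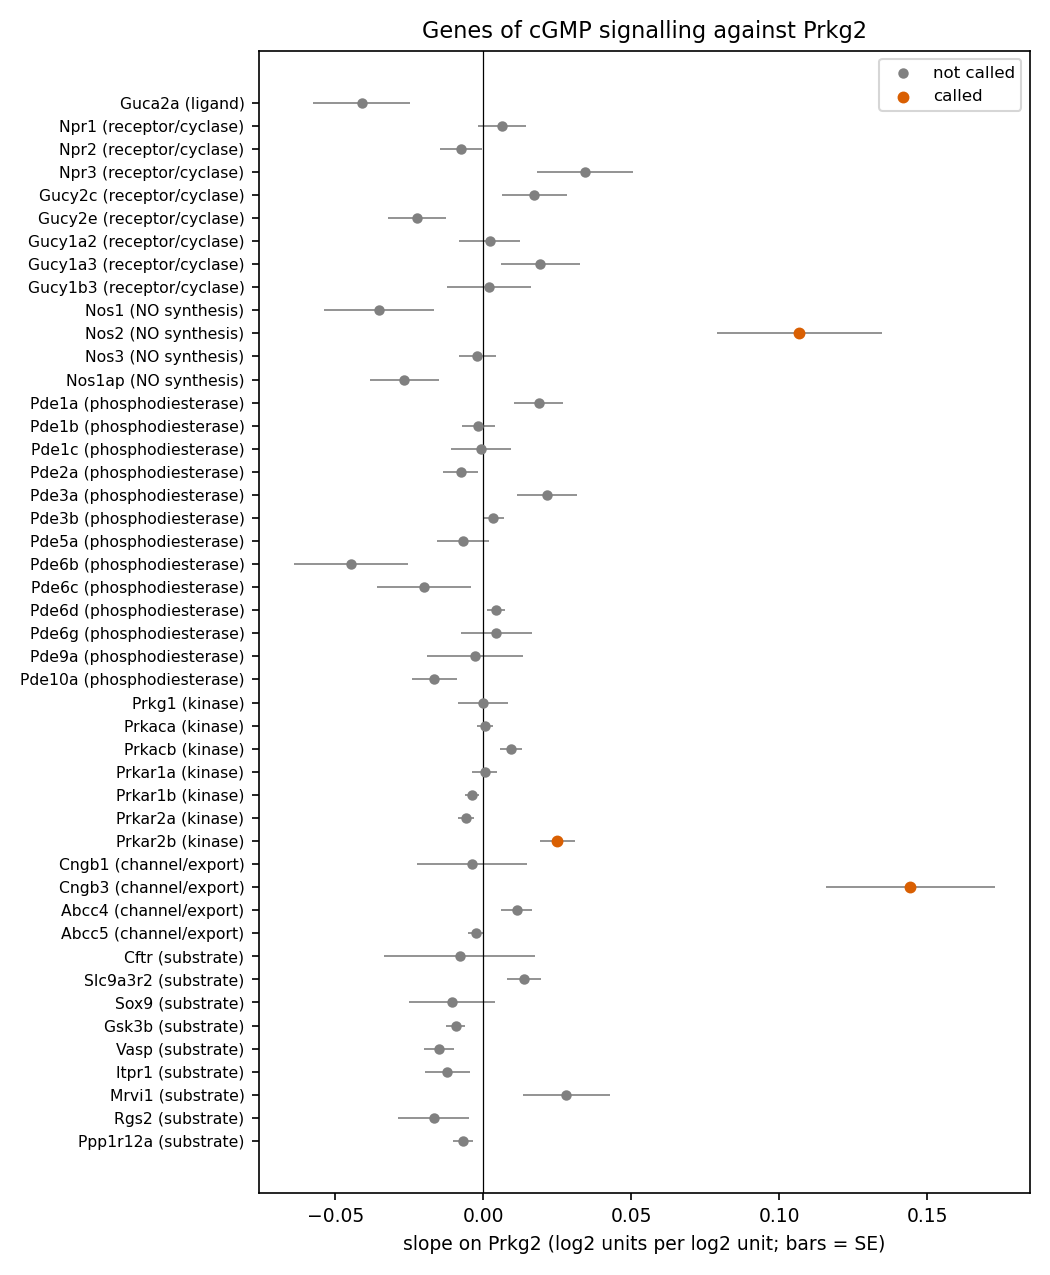
Slope on Prkg2 (log2 units per log2 unit, bars are SE) of each tested gene of cGMP and cAMP signalling, with called genes in orange. The called genes are Nos2, Prkar2b and Cngb3, all to the right of 0, and Prkg1 lies at 0.

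Marker genes of islet and other cells were called at a low rate, as were all tested genes (3.25%). The counts that follow are by slope alone and do not set the markers apart. Of 16 beta cell genes 0 were called, with a median rho of -0.0207. Iapp, the islet amyloid gene, came nearest (rho 0.176, slope 0.0141 ± 0.0046, adjusted p = 0.0591). Of 9 alpha cell genes 1 fell, and their median rho was -0.0987. Of 9 delta and PP cell genes 1 fell, the retinol carrier gene Rbp4 (slope -0.0362 ± 0.0110, adjusted p = 0.0408, rho -0.151), and the median rho of that list was -0.102. Of 12 stellate cell genes 1 rose, the collagen gene Col3a1 (0.0841 ± 0.0206, adjusted p = 0.00901), which missed the threshold by rho (0.132, permutation adjusted p = 0.0977). Among 17 acinar, 12 duct, 13 endothelial, 11 macrophage, 3 lymphocyte and 8 Schwann cell genes 0 were called by slope. The medians of rho lay between -0.0613 for duct and 0.0581 for endothelial genes. The macrophage gene Cd68, not called by slope (edgeR adjusted p = 0.0706), passed by rho (-0.200, permutation adjusted p = 0.00722). By permutation of rho 6.72% of all tested genes passed, and members passing by rho were not counted by list. The part of the cells of these lists in the level of Prkg2 was not tested beyond the fits with 8 cell type scores.

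The slope on Prkg2 itself was compared between the sexes. It differed for 3 of 16926 genes (0.0177%), Srl, Pbx4 and Gm10020, none of which was among the neighbours. For Helq the slopes were -0.0287 in females and -0.0441 in males, and for Cds1 0.0688 and 0.0955, with each of these 4 slopes called in its own sex.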

How the data were processed

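Poly(A) RNA of pancreatic islets was sequenced, per the labels' protocols. In the deposited table of expected counts, which the authors left unscaled between libraries, 67.7% of all values and 100% of those of Prkg2 were whole numbers (tolerance 0). The authors also deposited variance-stabilised values, read as log2-like, which served only as an alternative and for a ranking of the spread. The submitters' processing notes name GRCm38 and DESeq2, with no version. The aligner and the counter were not given in the sources used here. Positions came from the deposited gene table, and transcripts from GENCODE mouse release 21.

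Expected counts were rounded. After filterByExpr by sex, 16927 genes were tested in R 4.3.3 with edgeR 4.0.16, by its quasi-likelihood F test with TMM factors, Benjamini-Hochberg adjustment over all of them and a threshold of 0.05. Sex, coded female minus male, and number band were in each main model, and the slope used log2 CPM of Prkg2 with prior count 2. Each SE is the absolute log2 value divided by the root of F. Pearson's r and Spearman's rho used log2 CPM with sex and band removed, with two-sided permutation within sex and band (100000 resamples, adjusted over 16926 genes, Python 3.11.15, NumPy 2.4.6, SciPy 1.17.1). All p-values not called permutation values are from edgeR unless another tool is named.

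Prkg2 and the gene lists were chosen with earlier results of these data known. Named by rule were the 8 genes within 10 Mb with the largest absolute rho, the 4 nearest starts on each side, 5 genes elsewhere on chromosome 5, 12 distant genes in each direction (mean CPM at least 2, called, the same sign in 8 of 8 combinations of sex and band, no placeholder symbol), list members of smallest p, and genes whose slope differed by sex. Further genes were named after the data were seen. A marker gene is not reported by name here. Alternatives were DESeq2 1.42.0, limma-voom (limma 3.58.1), other size factors, no filter, other covariates, each band or sex alone, normal scores, and the deposited values. Slopes in the deposited values were taken on the deposited values of Prkg2, with sex but not number band in the model. When counts were simulated with these library sizes, slopes of 0.02, 0.05, 0.1 and 0.2 were recovered in 60%, 90%, 94% and 100% of cases, with 4 false calls among 16926 genes. Each simulated gene was drawn on its own, without band differences or relations among genes. The simulation therefore does not give the rates of recovery or of false calls in the real libraries. No sequence is shown, since the tables used here hold none for Prkg2.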

Additional observations from a re-analysis of the deposited data

Results flagged for a closer look

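The slope on Prkg2 differed between the sexes for 3 of 16926 genes by a direct test of the difference (edgeR's quasi-likelihood test of the interaction, Benjamini-Hochberg adjusted), which is why they are set out here. The difference comes from a joint fit of both sexes. The slope given for each sex comes from a fit of that sex alone, so the slopes need not subtract exactly to the difference. For Srl, which encodes a calcium-binding protein of muscle membranes, the slope was -0.0994 in females and 0.127 in males, a difference of -0.221 ± 0.0395 (SE, adjusted p = 7.1e-04). Srl ran from 0.287 to 34.9 CPM with a median of 1.41 CPM. Among the libraries of both sexes above the trough its slope was -0.977 (edgeR's quasi-likelihood test, adjusted p = 0.00837). For Pbx4, a homeobox gene, the slope was 0.124 in females and -0.192 in males, a difference of 0.289 ± 0.0601 (adjusted p = 0.0124). Pbx4 had a median of 0.443 CPM and a maximum of 17.8 CPM. For Gm10020 the slope was -0.0813 in females and 0.370 in males, a difference of -0.519 ± 0.105 (adjusted p = 0.0103), at a median of 0.302 CPM and with no whole-number count in any library (0%). In the pooled fit none of the 3 followed Prkg2 (adjusted p = 0.813, 0.607 and 0.389). All 3 passed again without the 2 libraries farthest from the median of Prkg2, and 2 of them with normal scores of its ranks.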

How the results depend on the processing

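Depth limits Prkg2 itself, since the 10th percentile of its count is 5, so slopes among the low libraries carry counting error, and the labels name no batch. No paired analysis was possible because the mouse numbers of females and males are not shared. The sex difference of Prkg2 stayed short of the threshold under all alternatives run, was 0.91 log2 units with 8 cell type scores and -0.23 in band 2 alone, and the band and interaction results kept their side with limma-voom. The share of genes that followed Prkg2, 3.25% in the report, was 1.11% in the deposited values, where the model held no number band. It was 2.11% with 8 cell type scores, 0.337% with 10 principal components and 9.96% with normal scores of the ranks of Prkg2. Without the 2 libraries farthest from the median of Prkg2 the share was 1.77%. It was 0.0945%, 0.354%, 0.0709% and 0.0118% in bands 1 to 4 alone, 0.106% in females, 1.90% in males, and, in divisions added after the data were seen, 6.62% below and 0.183% above the trough. Positive slopes made up 52% of the called genes, and 64.6% without a filter on low counts. The count of 37 neighbours was 5, 12, 3 and 2 in bands 1 to 4, 11 in females, 15 in males and 0 above the trough, and a window of 5 Mb held 15 and one of 20 Mb 57. The cause of these shifts was not tested. Without the 2 females with little Xist, also added later, 3.99% of all genes and 40 neighbours were called.

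Over the slopes of the named genes and all alternatives 2366 values kept their direction and side of the threshold, 576 lost the call, 56 gained it and 42 changed sign. Of the sign changes 29 arose above the trough: Taar1 -0.0132, Stat2 -0.115, Rsad2 -0.204, Dlk1 0.00102, Rnf180 0.132, Srl -0.977, Mx1 -0.550, March5 -0.0671, Pamr1 -0.0763, Bglap3 -0.874, Ptgfrn 0.00573, Gm7993 -0.126, Bmp3 -0.0958, 4930458D05Rik 0.0556, Mapk10 0.132, Nudt9 -0.00489, Gbp6 -0.125, Gm42902 0.0222, Ephx4 0.0799, Slc26a1 0.0743, Zfp932 -0.0112, Plcxd1 0.121, Ttc28 0.0273, Coro1c 0.0367, Zfp398 0.0739, Edem1 -0.0439, Large -0.186, Herpud1 -0.0449 and Azi2 -0.0420. The slope of Srl above the trough was called in that direction by edgeR (adjusted p = 0.00837). Below the trough Tmem150c (-0.0364, adjusted p = 0.00579) and Cdc7 (-0.0841, adjusted p = 0.0268) were called in the opposite direction by edgeR, and Zfp951 (-0.0121) changed sign without a call. In band 1 alone that of Stat2 was -0.00228, in band 2 that of Cox18 0.00160, and in band 4 those of Nos2 -0.0168, Plac8 -0.0291, Gbp4 -0.0306, Gm10419 0.0120 and Edem1 -0.00132. With 10 principal components Nos2 was at -0.00421 and Mx1 at -0.0119. In females alone Srl was at -0.0994 and was called by edgeR (adjusted p = 0.0294). The cause of these changes was not tested.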

Other observations

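Genes of the unfolded protein response, which raises folding capacity in the endoplasmic reticulum, had positive rho with Prkg2 more often than not. Of 19 tested members 3 rose and 0 fell, where 1.69% of all tested genes rose and 1.56% fell, and the median rho was 0.105, beside -0.00272 over all tested genes. Herpud1, a gene of protein degradation at the endoplasmic reticulum, ran from 81.8 to 560.7 CPM with a median of 217.3 CPM and rose (slope 0.0325 ± 0.00883, edgeR's quasi-likelihood test, adjusted p = 0.0198, rho 0.211). The co-chaperone gene Dnajc3 (slope 0.0158, adjusted p = 0.0484) and Edem1, a gene for the disposal of misfolded glycoproteins (0.0145, adjusted p = 0.0417), were near the threshold.

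Of 14 interferon response genes 3 rose and 0 fell, beside the same 1.69% and 1.56% of all tested genes, and their median rho was 0.146 (-0.00272 over all). Stat2, a transcription factor gene of the interferon pathway, ran from 38.4 to 465.8 CPM with a median of 144.6 CPM (slope 0.0356 ± 0.00979, adjusted p = 0.0212, rho 0.203). Its rho was 0.408 and 0.320 in bands 2 and 3 but 0.0279 and 0.0731 in bands 1 and 4. The antiviral genes Rsad2 (slope 0.0667, adjusted p = 0.0300) and Mx1 (0.0738, adjusted p = 0.0458) were the other called members, and Mx1 had no whole-number count (0%). The rho of Rsad2 was 0.0907, 0.386, 0.238 and 0.0706 in bands 1 to 4. In females and males alone neither Stat2 (edgeR adjusted p = 0.171 and 0.316) nor Rsad2 (0.246 and 0.351) passed. For each of these 2 genes rho was positive in 6 of 8 combinations of sex and band. None of 18 proliferation, 13 immediate early and 16 clock genes was called (0 genes), and their median rho was 0.0795, -0.0284 and -0.0726.

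Away from chromosome 5 the smallest p-values belonged to Bglap3 and Gatm, both chosen after their values were seen. Bglap3, an osteocalcin-related gene on chromosome 3 with close copies beside it, had a slope of 0.480 ± 0.0639 (adjusted p = 1.7e-09) and a rho of 0.192. It had a median of 0.282 CPM and lay over 16 CPM in 7 libraries, with a maximum of 202.8 CPM, and 55.3% of its values were whole numbers. Gatm, a gene of creatine synthesis, ran from 3.78 to 138.4 CPM and had a slope of 0.0798 ± 0.0140 (adjusted p = 2.95e-05) and a rho of 0.231, with -0.0138, 0.253, 0.334 and 0.399 in bands 1 to 4.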
